A study of Mus musculus with 18 samples.

Results

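The data described here are 6 arrays of whole ovaries from Pik3cd+/- mice, 3 taken 44 hours after an injection of PMSG and 3 taken 72 hours after a course of 3 oestradiol (E2) injections began. They were chosen by their genotype and treatment labels from the 18 arrays of the series, in which Pik3cd+/- and Pik3cd-/- females were each left untreated or given 1 of the 2 agents. All mice were females of a mixed C57B6J/S129 background. The 6 mouse groups started at postnatal day 21, so that the ovaries were taken at 21 days (untreated), 21 days plus 44 hours (PMSG, a single 10 IU dose into the peritoneum) or 21 days plus 72 hours (E2, 0.03 ml per injection at intervals of 24 hours; the mass of E2 is not given in the sources used here). The 6 groups hold 3 arrays each, labelled as biological replicates. Pik3cd codes for p110delta, a catalytic subunit of phosphoinositide 3-kinase, and both groups compared carried 1 mutant and 1 wild-type allele. The PMSG and E2 groups share no array, but they differ in agent, number of injections, hours and age at dissection, and these cannot be told apart. No vehicle-injected or wild-type group was analysed here.

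PMSG (pregnant mare serum gonadotropin) acts mainly on the FSH receptor of granulosa cells, with some activity at the LH receptor of theca cells, and carries antral follicles of immature mice to the preovulatory stage. Oestradiol acts through nuclear oestrogen receptors, of which ESR2 predominates in granulosa cells and ESR1 in theca and stroma, and it promotes granulosa cell proliferation and the growth of preantral and early antral follicles. Theca cells turn cholesterol into androgens and granulosa cells turn androgens into oestrogens, so that steroid output needs both cell layers. The comparison therefore sets gonadotropin drive beside direct oestrogen drive in ovaries of the same genotype.

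Expression was read as the deposited signal of each probe set, in intensity units, and compared on the log2 scale with limma over the genes that have a probe set assigned to a single gene symbol. Of 18193 such genes, 12713 were bright enough to be tested. Genes with an adjusted p under 0.05 are called higher or lower below; differences are PMSG minus E2 in log2 units, given with the standard error of the model (3 arrays a group). The arrays had near-equal medians, from 48.4 to 50.9 over all 18. Correlations of log2 signals between arrays were 0.980 to 0.990 within the PMSG group, 0.985 to 0.992 within the E2 group and 0.970 to 0.977 between them. The granulosa markers Inha and Foxl2, the oocyte markers Zp3 and Gdf9 and the theca and stroma markers Cyp17a1 and Pdgfra were all measured well above the filter in both groups.

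After PMSG, 450 genes (3.54% of those tested) were higher than after E2 and 973 (7.65%) were lower, 1423 in all (11.2%). The higher genes moved further: their median difference was 0.62 and 119 of them differed at least 2-fold, against a median of -0.42 and 38 such genes among the lower ones. Here and below, the largest differences are ranked among called genes whose PMSG and E2 arrays did not overlap, without clone or provisional names. The 6 largest positive ones included those of the BMP antagonist Grem1 and the steroidogenic enzymes Cyp17a1 and Cyp11a1. The others were those of the GABA-A receptor subunit Gabrb2, the matrix gene Comp and the Wnt antagonist Sfrp4. The lower genes included 13 of 29 tested mitotic genes. The median of all genes tested was -0.06, with 7766 negative and 4947 positive differences. The list counts below stand beside these shares. The PMSG and E2 arrays of a gene did not overlap at all for 4044 genes (31.8%). The count of called genes depended on single arrays: it was 791 without PMSG array 1, 663 without PMSG array 2, 828 without E2 array 1 and 613 without E2 array 2. The lower genes accounted for most of this, with 472, 351, 486 and 387 calls in those 4 fits, whereas the higher genes numbered 312 to 342 in the first 3 and 226 without E2 array 2.

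**Figure D1:**
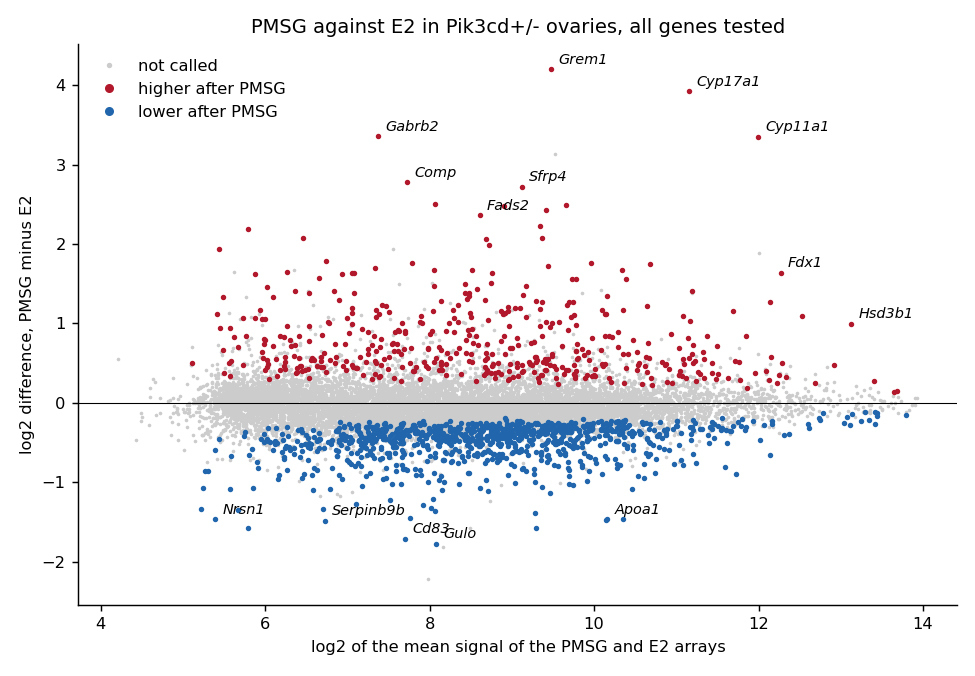
Difference between PMSG and E2 arrays of Pik3cd+/- ovaries (vertical axis, log2 units) against the log2 of their mean signal (horizontal axis), 1 point per gene tested. The 450 genes called higher after PMSG are red and the 973 called lower are blue. Grem1 and Cyp17a1 lie near the top at about 4 log2 units. Among the called lower genes whose arrays do not overlap, without clone or provisional names, the largest difference is -1.77 for Gulo.

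Genes of steroid synthesis had the highest median difference of the 31 gene lists. Of 12 tested members, 6 were higher and none was lower, with a median difference of 0.95 against -0.06 over all genes tested. Cyp17a1, the theca enzyme that makes androgens, read 3544, 3257 and 5809.9 on the 3 PMSG arrays and 729.7, 220.3 and 105 on the 3 E2 arrays (3.93 ± 0.61, adjusted p = 0.0012). Cyp11a1, which cleaves the cholesterol side chain in the mitochondrion, read 5500.3, 8459.7 and 7993 after PMSG and 1619.6, 528 and 396 after E2 (3.35 ± 0.46, adjusted p = 0.0005). For both genes every PMSG array lay above every E2 array, and E2 array 1 lay well above the other two. Fdx1, the electron donor of Cyp11a1, read 6069, 8553 and 7659 against 3331, 2094 and 1878 (1.64 ± 0.18, adjusted p = 0.0001), again without overlap. Only 1 of the 3 probe sets of Cyp11a1, the brightest, was called.

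Star, the protein that carries cholesterol to the inner mitochondrial membrane, was higher after PMSG but very unevenly so. It read 198, 2011 and 384 after PMSG and 85.3, 92.6 and 91.3 after E2 (2.48 ± 0.56, adjusted p = 0.011). The E2 arrays were nearly level, and PMSG array 2 stood about an order of magnitude above PMSG array 1. All 3 probe sets of Star were called. Scarb1, the receptor that takes up cholesterol from high-density lipoprotein, was higher at 1744, 2831 and 2189 against 1089, 856 and 898 (1.22 ± 0.20, adjusted p = 0.0015). Hsd3b1, which converts pregnenolone to progesterone, read 10394, 11814 and 13332 after PMSG and 7637, 5305 and 5055 after E2 (1.00 ± 0.13, adjusted p = 0.00044). Its level in untreated ovaries was 9842, 10059 and 10655, so that the PMSG arrays lay near or above the untreated ones and the E2 arrays below all of them. Against untreated ovaries Hsd3b1 fell after E2 (-0.79 ± 0.13, adjusted p = 0.0099) and the difference after PMSG was not called (0.21 ± 0.13, adjusted p = 0.29). Hsd17b1, the granulosa enzyme that makes oestradiol from oestrone, overlapped between the groups at 2579, 2467 and 5846 and 3448, 3197 and 3005 and was not called (0.06 ± 0.39, adjusted p = 0.94). The list's calls numbered 6 in each fit that left out 1 array. Of 11 tested genes of the luteal list, 4 were higher and none was lower, with a median of 0.90; the 4 were Star, Cyp11a1, Scarb1 and Hsd3b1, which are also in the steroid synthesis list. Here and below, fewer cells of a type and less RNA per cell cannot be told apart in whole ovaries.

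**Figure D2:**
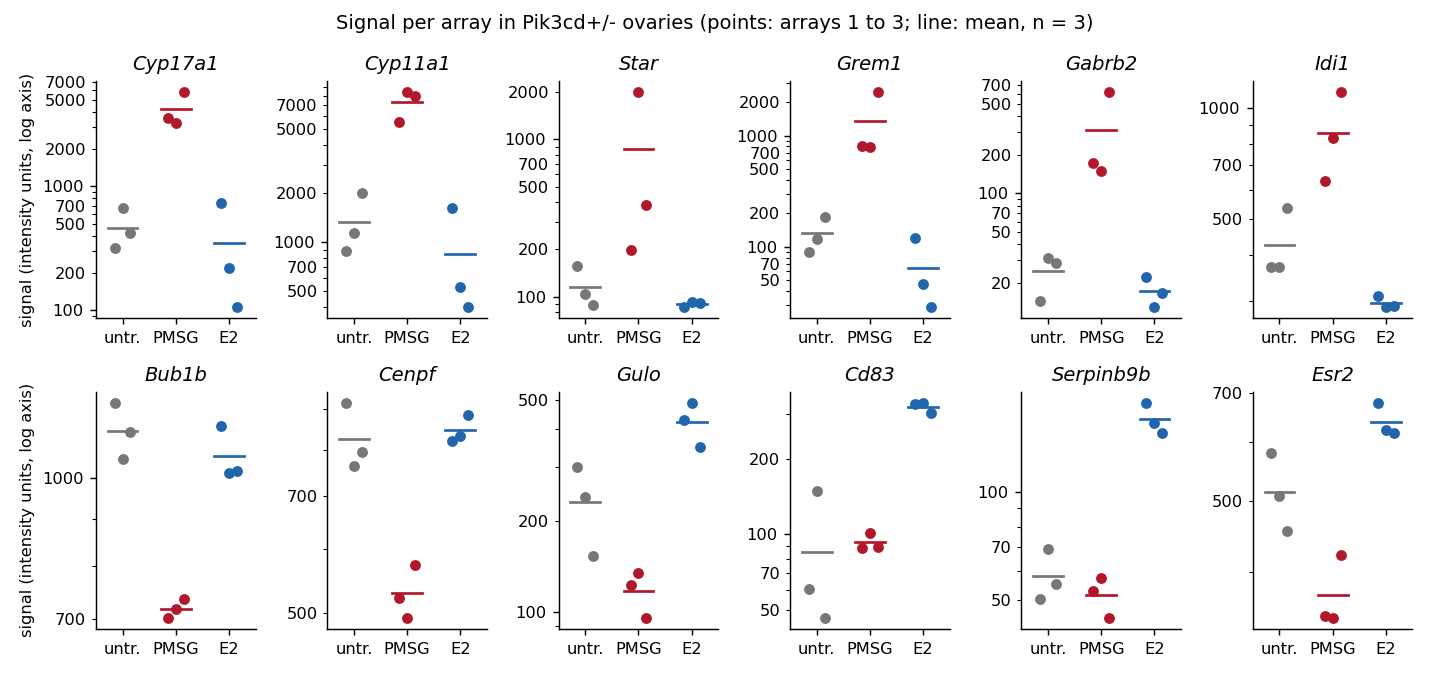
Signal of 12 genes on each array of untreated, PMSG and E2 groups of Pik3cd+/- ovaries (vertical axes, intensity units on a log scale that differs between panels; points are arrays 1 to 3 from left to right and lines are means, n = 3). The PMSG arrays lie above all E2 arrays for Cyp17a1, Cyp11a1, Star, Grem1, Gabrb2 and Idi1 and below all of them for Bub1b, Cenpf, Gulo, Cd83, Serpinb9b and Esr2.

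Cholesterol synthesis and uptake moved in the same direction as steroid synthesis. All 20 tested members had a positive difference, 11 of them were called higher and none lower, and their median difference was 0.64. Idi1, an isomerase of the isoprenoid steps, read 634, 828 and 1106 after PMSG and 309, 288 and 292 after E2 (1.47 ± 0.25, adjusted p = 0.0023). Dhcr7, which catalyses the last reduction to cholesterol, read 276, 626 and 495 against 209, 184 and 159 (1.23 ± 0.23, adjusted p = 0.0034). Neither gene overlapped between the groups, and PMSG array 1 was the lowest PMSG array for both. The sterol reductase Tm7sf2 (1.41 ± 0.21, adjusted p = 0.00083), the lanosterol demethylase Cyp51 (0.90 ± 0.14, adjusted p = 0.00097) and the sterol dehydrogenase Nsdhl (0.84 ± 0.13, adjusted p = 0.0014) were also higher. Relative to untreated ovaries the list's median was 0.54 after PMSG and -0.18 after E2; these 2 values share the untreated arrays. Leaving out PMSG array 2 lowered the number of called members to 7, and leaving out PMSG array 1 gave 12.

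Sterol-regulated promoters commonly hold the sterol regulatory element, and the upstream sequence of the only list member with a match is shown so that its place can be seen. The letters TCACNCCAC were searched on both strands of the 300 bases around each gene start in RefSeq (GRCm38.p6), where 1 of 16 list members with a promoter in the table (6.25%) and 1.22% of all 27025 promoters held them. The member was Hmgcs1, a synthase of the early pathway, which was higher after PMSG (1.09 ± 0.21, adjusted p = 0.0046). Its match begins 137 bases before the start, in capitals in the 250 upstream bases at chr13:119690101-119690350 on the plus strand.
Hmgcs1: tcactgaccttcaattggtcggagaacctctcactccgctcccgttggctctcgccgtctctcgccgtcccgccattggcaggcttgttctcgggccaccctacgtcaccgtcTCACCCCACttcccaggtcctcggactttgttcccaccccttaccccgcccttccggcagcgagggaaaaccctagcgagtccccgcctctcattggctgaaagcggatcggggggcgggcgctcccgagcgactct
A match is a run of letters and not a measured binding site. The letters CAAGGTCA, the extended site of the steroidogenic factor SF-1, occurred in 0 of 10 steroid synthesis promoters in the table, against 1.53% of all promoters.

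Of 16 tested granulosa genes that respond to FSH, 5 were higher after PMSG, none was lower and the median difference was 0.24. Fshr, the FSH receptor, read 343, 333 and 859.8 after PMSG and 250.4, 165 and 145 after E2 (1.31 ± 0.30, adjusted p = 0.013). Prkar2b, a regulatory subunit of protein kinase A, read 5765, 5855 and 7479 against 2539, 2190.1 and 3222 (1.27 ± 0.25, adjusted p = 0.0049), and the ApoE receptor Lrp8 was higher by 0.85. None of the 3 overlapped between the groups, and PMSG array 3 was the highest array for each. Lrp8 lost its call without PMSG array 2 or 3 or E2 array 1 or 2, and Fshr without E2 array 2. The list then had 3 higher genes without PMSG array 2 or E2 array 1, 2 without E2 array 2 and 5 in the other fits. The activin subunit Inhba read 4369.8, 4282 and 11149 against 2188, 1288 and 1432 and missed the threshold (1.89 ± 0.66, adjusted p = 0.076), although the arrays did not overlap. Inhbb, Fst and Inha, which code for the second activin subunit, the activin-binding follistatin and the inhibin alpha subunit, had differences of 0.27, 0.02 and -0.08 and were not called. For Inhbb, Fst and Inha too, PMSG array 3 was the highest of the PMSG arrays.

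Of 10 tested genes that respond to the LH surge or accompany cumulus expansion, 4 were higher after PMSG and 1 was lower. Cited1, a transcriptional co-activator, read 184, 219 and 163 after PMSG and 61.1, 63 and 43.4 after E2 (1.62 ± 0.18, adjusted p = 0.0001). The protease Adamts1, needed for ovulation, read 704, 561 and 730.4 against 306, 273 and 311 (1.13 ± 0.19, adjusted p = 0.0016), and Ptx3, a protein of the cumulus matrix, read 195, 176 and 157 against 81.4, 70.8 and 86.9 (1.06 ± 0.12, adjusted p = 0.00014). The EGF-like ligand Ereg was dimmer and uneven, at 45.5, 40.9 and 124 against 19.3, 17.5 and 22.2 (1.33 ± 0.36, adjusted p = 0.027), and lost its call without PMSG array 3, E2 array 1 or E2 array 2. The lower gene was Runx1, a transcription factor, at 386, 351 and 300.2 against 718, 754 and 642 (-1.01 ± 0.22, adjusted p = 0.0082). The PMSG arrays of Runx1 lay within the range of untreated ovaries (463, 433 and 273) and the E2 arrays above it. The progesterone receptor gene Pgr overlapped widely, at 447, 150.2 and 123 after PMSG and 113, 184 and 261 after E2 (0.20 ± 0.59, adjusted p = 0.86).

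Secreted antagonists of BMP and Wnt ligands were among the genes furthest apart. Grem1, which binds and blocks BMPs, read 803, 792 and 2478 after PMSG, 119.9, 46.4 and 28.5 after E2 and 90.2, 119 and 187 in untreated ovaries. Its difference, 4.20 ± 0.65, adjusted p = 0.0012, was the largest of all called genes, with PMSG array 3 about 3 times the other PMSG arrays. Sfrp4, a secreted Wnt antagonist, read 179, 2439.8 and 480.1 against 84.2, 84.2 and 82.8 (2.72 ± 0.68, adjusted p = 0.018): the E2 arrays agreed closely, while the PMSG arrays spanned more than an order of magnitude with array 2 at the top. The call of Sfrp4 was lost without PMSG array 2, without E2 array 1 or without E2 array 2. Frzb, a related antagonist, was more even at 202, 174 and 219 against 96, 51.5 and 69.1 (1.39 ± 0.23, adjusted p = 0.0016). In the opposite direction, Bmp6, a BMP ligand, read 199, 210.1 and 177 against 364, 333 and 256 (-0.67 ± 0.13, adjusted p = 0.0057), and Dkk3, a member of the Dickkopf family, was also lower (-0.64 ± 0.15, adjusted p = 0.015), but not called without PMSG array 2, E2 array 1 or E2 array 2. Of the 18 tested genes of this list 3 were higher and 2 were lower, and the median difference was 0.09.

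Genes of the extracellular matrix and of its proteases were mostly higher where they were called. Of 16 tested proteases and inhibitors, 5 were higher and none was lower. Adamts5, a versican-cleaving protease, read 1129, 1004 and 1058 after PMSG and 345, 243 and 374 after E2 (1.72 ± 0.21, adjusted p = 0.00019). Plau, the urokinase plasminogen activator, read 373, 255 and 308 against 226, 149 and 198 (0.68 ± 0.19, adjusted p = 0.034); it stood at 92.3, 108 and 118 in untreated ovaries, below both treated groups. Adamts15 (1.06 ± 0.20, adjusted p = 0.0039) and the cathepsin Ctsb (0.52 ± 0.16, adjusted p = 0.045) were also higher. Leaving out 1 array gave 3 to 5 higher genes in the list: Ctsb lost its call whichever array was left out, and Plau lost it without PMSG array 1 or 3 or E2 array 2 or 3. Of 22 tested matrix genes, 5 were higher and 1 was lower. Comp, the cartilage oligomeric matrix protein, read 233, 205 and 708 against 37.8, 40.6 and 41.7 (2.78 ± 0.32, adjusted p = 0.00012), and Vcan, the proteoglycan versican, read 1029, 872 and 1661 against 431, 424 and 556 (1.28 ± 0.19, adjusted p = 0.00099). The basement membrane collagen chains Col4a3 (0.88 ± 0.12, adjusted p = 0.00062) and Col4a4 (0.74 ± 0.12, adjusted p = 0.0013) were higher, and the matricellular gene Thbs2 was lower (-0.66 ± 0.17, adjusted p = 0.023) but not called without PMSG array 1 or 2 or E2 array 1 or 2. For Vcan only 3 of 8 probe sets were called, and the E2 arrays lay below all untreated ones (939, 699 and 997).

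Several other genes were among the 12 with the largest positive differences. Gabrb2, a subunit of the GABA-A receptor, read 174, 149 and 621 after PMSG and 22.3, 12.9 and 16.8 after E2 (3.36 ± 0.45, adjusted p = 0.00044), with 4 of 5 probe sets called. Like those of Comp, its E2 arrays all lay below the level of the filter, 49.9 intensity units. The size of the Gabrb2 difference ran from 2.01 to 3.90 over the alternatives. Dpep1, a membrane dipeptidase, was even in both groups at 1207, 964 and 1318 against 227, 186 and 209.8 (2.43 ± 0.25, adjusted p = 6.4e-05). Fads2, the delta-6 desaturase of polyunsaturated fatty acids, read 579.6, 557 and 845 against 137, 121 and 103 (2.36 ± 0.21, adjusted p = 3.5e-05) and had the smallest adjusted p of these genes. The peroxisomal oxidase Hao2 (2.49 ± 0.32, adjusted p = 0.00033) and the aldehyde dehydrogenase Aldh1a7 (2.23 ± 0.26, adjusted p = 0.00014) did not overlap between the groups either. Saa3, an acute-phase protein, read 653, 637 and 138 against 62.4, 64.4 and 57.1 (2.51 ± 0.49, adjusted p = 0.005), and here PMSG array 3 was the lowest of its group.

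The PMSG arrays thus differed among themselves by gene. Among the 12 genes with the largest positive differences, PMSG array 3 was the highest PMSG array for 8, array 2 for 3 (Cyp11a1, Sfrp4 and Star) and array 1 for 1 (Saa3). Among the E2 arrays, array 1 was the highest for 8 of the same 12 genes. Each of the 12 differences kept its sign with any 1 of these arrays left out, and Sfrp4 was the only one of them to lose its call in such a fit.

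Mitotic genes were lower after PMSG than after E2. All 29 tested members of the list had a negative difference, 13 were called lower and none higher, and their median was -0.42. Over all 12713 genes tested 7766 differences were negative, 7.65% of the genes were called lower and the median was -0.06. Cenpf, a kinetochore protein, read 522, 492 and 573 after PMSG and 821, 832 and 883 after E2 (-0.67 ± 0.10, adjusted p = 0.00094). Bub1b, a kinase of the spindle checkpoint, read 701, 718 and 736 against 1141, 1013 and 1018 (-0.55 ± 0.09, adjusted p = 0.0016). In both genes the 3 PMSG arrays lay below every E2 array and below every untreated array (916, 762 and 794 for Cenpf and 1209.8, 1048 and 1123 for Bub1b). The kinetochore motor Cenpe (-0.67 ± 0.10, adjusted p = 0.001), the central spindle protein Prc1 (-0.50 ± 0.10, adjusted p = 0.0072) and the kinesin Kif23 (-0.61 ± 0.13, adjusted p = 0.0086) followed the same order. Relative to untreated ovaries the list's median was -0.48 after PMSG and -0.03 after E2, 2 values that share the untreated arrays. The differences were small, and the number called depended on single arrays: it was 5 without PMSG array 1, 6 without PMSG array 2, 8 without E2 array 1, 6 without E2 array 2, and 12 and 16 without either of the other 2. For Cenpf, Cenpe and Kif23 1 probe set each was called, of 3, 2 and 3.

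Genes of DNA replication had a smaller difference. Of 30 tested, 28 had a negative difference, as did 7766 of all 12713 genes tested, and the median was -0.25. Only 2 were called lower and none higher, which is near the 7.65% called lower among all genes tested. Mcm7, a subunit of the replicative helicase, read 2442, 2144 and 2334 after PMSG and 2969, 3168 and 2983 after E2 (-0.40 ± 0.08, adjusted p = 0.0043), and the ligase Lig1 read 527, 468 and 503 against 691, 718 and 681 (-0.47 ± 0.11, adjusted p = 0.015). Neither gene overlapped between the groups, and Lig1 lost its call without PMSG array 2 or E2 array 2. The cyclin gene Ccnd2, which granulosa cells need to proliferate, read 2436, 2176 and 3011 against 2884, 3382 and 3016 and was not called (-0.29 ± 0.12, adjusted p = 0.14).

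The promoters of the mitotic genes were searched for a motif named after cell cycle genes. Its share therefore describes the list and not the comparison of PMSG with E2. The cell cycle genes homology region (CHR), searched as TTTGAA or TTCGAA on both strands of the 300 bases around the gene start, was present in 18 of the 25 list members with a promoter in the RefSeq table (72%), against 19.4% of all 27025 promoters and 13.5% of those of tested genes. It was present in 7 of the 10 called members with a promoter, much the same share as in the whole list. The upstream 250 bases of Bub1b and of Cdc20, the activator of the anaphase-promoting complex (-0.50 ± 0.15, adjusted p = 0.049), are shown with the match in capitals. The stretch of Bub1b lies at chr2:118597961-118598210 on the plus strand of GRCm38.p6, with the match shown 188 bases before the start. A second match of Bub1b, TTTGAA, begins at base 41 after the start, outside the stretch shown. That of Cdc20 lies at chr4:118437344-118437593 on the minus strand, with the match 18 bases before the start.
Bub1b: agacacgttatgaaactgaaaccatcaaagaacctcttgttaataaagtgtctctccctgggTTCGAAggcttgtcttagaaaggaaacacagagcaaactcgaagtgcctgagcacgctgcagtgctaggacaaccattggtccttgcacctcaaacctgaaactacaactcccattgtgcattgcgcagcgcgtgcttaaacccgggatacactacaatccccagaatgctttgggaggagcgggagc
Cdc20: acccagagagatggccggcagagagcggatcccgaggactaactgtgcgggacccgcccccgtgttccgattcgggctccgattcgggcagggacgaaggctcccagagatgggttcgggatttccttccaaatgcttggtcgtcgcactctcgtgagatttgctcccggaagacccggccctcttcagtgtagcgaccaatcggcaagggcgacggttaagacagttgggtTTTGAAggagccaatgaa
The matches shown stand at unequal distances from the start, and binding at none of the matches was measured here.

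**Figure D3:**
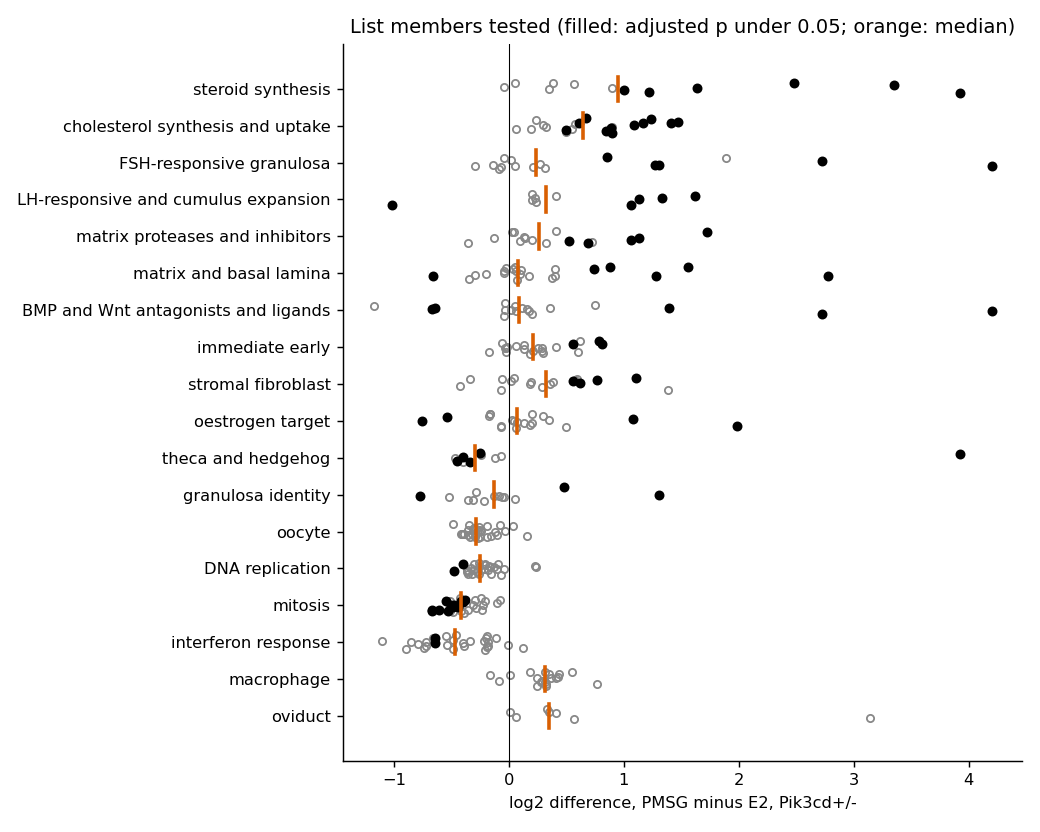
Difference between PMSG and E2 arrays of Pik3cd+/- ovaries (horizontal axis, log2 units) for the tested members of 18 gene lists, 1 row per list; filled points were called and orange bars are list medians. All 29 mitotic genes lie to the left of 0 and all 20 genes of cholesterol synthesis and uptake to the right, and the steroid synthesis list has the highest median, 0.95.

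The 12 genes with the largest negative differences were of varied known function. Gulo, which makes the last step of vitamin C synthesis in mice, read 123, 134 and 95.6 after PMSG, 428, 489.7 and 351 after E2 and 299.6, 240.1 and 153 in untreated ovaries. Its arrays did not overlap between the treated groups (-1.77 ± 0.21, adjusted p = 0.00016), and against untreated ovaries it fell after PMSG (-0.89 ± 0.21, adjusted p = 0.012) and rose after E2 (0.89 ± 0.21, adjusted p = 0.048). Cd83, a membrane protein of activated antigen-presenting cells, read 88.2, 101 and 89.2 against 329.6, 335 and 303 (-1.71 ± 0.35, adjusted p = 0.0068). Serpinb9b, a serine protease inhibitor, read 52.8, 57.7 and 44.5 against 177, 156 and 145 (-1.48 ± 0.16, adjusted p = 0.0001). For Cd83 and Serpinb9b the PMSG arrays were within the untreated range or close to it (60.3, 149 and 46.3 for Cd83 and 50.1, 69.2 and 55.4 for Serpinb9b), and both genes rose after E2 against untreated ovaries (1.98 ± 0.35, adjusted p = 0.014 and 1.34 ± 0.16, adjusted p = 0.0019).

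Kazald1 and Stc1 were the members of this group with the largest fall after PMSG against untreated ovaries. Kazald1, a secreted protein with a Kazal-type inhibitor domain, read 541, 519 and 618 after PMSG, 1203, 2706 and 1182 after E2 and 2859, 1432 and 1229 untreated (-1.48 ± 0.34, adjusted p = 0.012). Stc1, the glycoprotein stanniocalcin, read 118, 134 and 84.7 after PMSG, 273, 279.5 and 415 after E2 and 379.5, 210.3 and 502 untreated (-1.45 ± 0.33, adjusted p = 0.011). For Kazald1 and Stc1 the change against untreated ovaries was called after PMSG (-1.60 ± 0.34, adjusted p = 0.0061 and -1.56 ± 0.33, adjusted p = 0.006) and not after E2 (-0.13 ± 0.34, adjusted p = 0.9 and -0.11 ± 0.33, adjusted p = 0.91). Apoa1, the main protein of high-density lipoprotein, read 668, 587 and 485 against 1756, 2382 and 986 (-1.47 ± 0.26, adjusted p = 0.0028), with all 4 probe sets called. The Myc-family gene Mycl read 591, 529 and 932 against 1415, 1584 and 2766 (-1.46 ± 0.36, adjusted p = 0.018) and lost its call without PMSG array 1, PMSG array 2 or E2 array 3. The remaining members of the 12 were Otor (-1.58), Pdia2 (-1.58), Nrsn1 (-1.46), Fam81a (-1.38) and Mapk10 (-1.36); the adjusted p of these 5 ran from 0.00083 for Nrsn1 to 0.0097 for Otor. Otor lost its call without PMSG array 2, and Kazald1 without E2 array 2. Pdia2 and Nrsn1 were dim after PMSG, at 22.6, 22.1 and 18.4 and 15.7, 18 and 20.

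Of the oestrogen receptor genes, Esr2 was called and Esr1 was not. Esr2, the receptor of granulosa cells, read 349, 346 and 423 after PMSG and 679.9, 623 and 617 after E2, without overlap (-0.77 ± 0.15, adjusted p = 0.0053). Esr1 overlapped, at 1275, 741 and 669 against 791, 902 and 804 (0.05 ± 0.23, adjusted p = 0.92). Of 20 tested oestrogen target genes, 2 were higher after PMSG and 2 were lower, with a median difference of 0.07. Among all genes tested 3.54% were higher and 7.65% were lower. Susd3 read 515, 569.8 and 943 after PMSG and 249.8, 139 and 114 after E2 (1.98 ± 0.23, adjusted p = 0.00014), and Rasd1, a Ras-related protein, read 866, 841 and 1786 against 584, 480.2 and 479 (1.08 ± 0.21, adjusted p = 0.0049). Igf1r, the IGF1 receptor, was lower and even at 1135, 1084 and 1075 against 1598, 1524 and 1685 (-0.54 ± 0.08, adjusted p = 0.00072), as was Ramp3 (-0.75 ± 0.23, adjusted p = 0.044), whose arrays were less even. Ramp3 lost its call after quantile normalization and in all fits that left out 1 array except that without PMSG array 1. Greb1, an oestrogen-induced gene in many tissues, was not called (0.35 ± 0.17, adjusted p = 0.19). The oestrogen response element, GGTCA, any 3 bases and TGACC, was found in 0 of 19 promoters of the list and 0.0666% of all promoters, which says only that these letters are not in the 300 bases searched.

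Granulosa cells signal to theca through hedgehog ligands. Of the 10 tested genes of the theca and hedgehog list, 4 were lower after PMSG (Gli1, Ptch1, Smo and Sufu), Cyp17a1 was higher, and 5 were not called (Gli2, Gli3, Hhip, Ihh and Dhh); the median was -0.30. Gli1, a transcription factor and target of the pathway, read 87.3, 77 and 89 after PMSG, 111, 130.3 and 115 after E2 and 132, 123 and 138 untreated (-0.45 ± 0.09, adjusted p = 0.0042). Ptch1, the hedgehog receptor, read 2239, 2033 and 1939 against 2284, 2859 and 2746 (-0.34 ± 0.10, adjusted p = 0.048). The PMSG arrays of both genes lay below all E2 and all untreated arrays. The signal transducer Smo (-0.25 ± 0.07, adjusted p = 0.024) and the inhibitor Sufu (-0.40 ± 0.09, adjusted p = 0.0082) were called on 1 of 3 probe sets each, and a second probe set of Sufu had the opposite sign (0.07). The call of Ptch1 was lost in each fit that left out 1 array except that without E2 array 1. That of Smo was lost without PMSG array 2 or 3 or E2 array 1 or 2. The list had 2 to 3 lower genes in the fits that left out 1 array. It had 1 lower gene with the probe set of highest variance and 1 with only the groups compared in the fit. For Ptch1 none of the 3 probe sets was called when all probe sets were tested together.

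Among PI3K pathway components 3 of 18 tested were higher after PMSG and 1, Igf1r, was lower. The brightest probe set of Pik3cd itself read 3403, 4833 and 3680.0 after PMSG and 2329, 2812 and 3075 after E2 (0.53 ± 0.14, adjusted p = 0.026), and it was the only 1 of 6 called; the differences of the others ran from -0.27 to 0.03. Pik3r1, the regulatory subunit p85alpha, read 2338, 2112 and 1919.7 against 1331, 1420.2 and 1729 (0.51 ± 0.15, adjusted p = 0.043), and the insulin receptor substrate Irs1 was higher (0.37 ± 0.09, adjusted p = 0.013). Each of the 3 lost its call without E2 array 2; Irs1 and Pik3r1 also lost it without PMSG array 1, Pik3cd and Pik3r1 without PMSG array 2 or E2 array 1. Of 20 FoxO factors and targets, 3 were higher and none was lower: the kinase Pdk4 (1.19 ± 0.26, adjusted p = 0.009), the cyclin-like Ccng2 (0.84 ± 0.15, adjusted p = 0.0026) and Cited2 (0.50 ± 0.12, adjusted p = 0.015). Of 21 immediate early genes, 3 were higher and none lower. Fosl2, a FOS-family factor, read 1566, 1669.8 and 2180.0 after PMSG and 1053, 996 and 1046 after E2 (0.79 ± 0.14, adjusted p = 0.0028), the phosphatase Dusp1 read 559.8, 998 and 524 against 374, 311 and 451 (0.81 ± 0.19, adjusted p = 0.012), and Klf4 was higher by 0.56 with an adjusted p of 0.046 (limma). The other probe set of Fosl2 differed by 0.004 and was not called. Pdk4, Cited2 and Dusp1 lost their calls without E2 array 2, and Klf4 without PMSG array 1 or 2 or E2 array 1 or 2. The cyclic AMP response element, searched as TGACGTCA or TGACGCAA, was present in 3 of 17 immediate early promoters (17.6%) and 2.37% of all promoters.

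Stromal fibroblast genes were higher after PMSG for 4 of 18 tested and lower for none, with a median of 0.32. Tcf21, a transcription factor of stromal progenitors, read 2742, 2755 and 2624 after PMSG, 1892, 1906 and 1701 after E2 and 2686, 2611 and 2640.3 untreated (0.56 ± 0.08, adjusted p = 0.00073). Its PMSG arrays lay close to the untreated ones, and against untreated ovaries it fell after E2 (-0.53 ± 0.08, adjusted p = 0.0064). Pdgfra, the PDGF receptor of theca and stroma, read 1995, 1599 and 1402 against 1171, 1012 and 1030.2 (0.62 ± 0.16, adjusted p = 0.02), and the microfibril gene Mfap4 was also higher (0.76 ± 0.21, adjusted p = 0.032). The call of Cd34 (1.11 ± 0.34, adjusted p = 0.047) was lost whichever array was left out, that of Mfap4 in all such fits except that without E2 array 1, and that of Pdgfra without PMSG array 1 or 2 or E2 array 2; the list had 1 to 3 calls in such fits. The summed signal of the 18 stromal genes ran from 42809.8 to 57561 over the PMSG arrays and from 40887 to 44146.5 over the E2 arrays, highest in PMSG array 1.

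Markers of other cell types were summed over each list's measured genes. The 20 macrophage genes summed to 4198 to 8549.8 (median 6783) after PMSG and 4859.6 to 5093 after E2; 17 of the 19 tested had a positive difference and none was called. The 13 oviduct genes summed to 5517 on PMSG array 1, 941 and 845 on the other PMSG arrays and 779.5 to 799.9 on the E2 arrays, with none of 7 tested genes called. On the untreated arrays they summed to 938 to 3474. Their mean log2 level was higher on untreated array 2 (7.18) than on PMSG array 1 (6.82). The 8 MHC class II genes summed to 895 to 1941 after PMSG and 715 to 745 after E2, and none of the 6 tested was called. PMSG array 1 also had the highest mean level of macrophage, smooth muscle, stromal, surface epithelium and adipocyte genes in its group, and the part of these cells in the results was not tested. Without that array there were 6 higher genes in the steroid synthesis list, 12 in the cholesterol list and 1 in the stromal list (6, 11 and 4 with it), and 5 lower genes in the mitosis list (13 with it). No gene of the granulocyte (1 tested), lymphocyte (4), endothelial (20), smooth muscle (11), surface epithelium (10), adipocyte (5) or blood (1) lists was called. None of the 14 tested apoptosis genes was called either, and of 20 genes of glycolysis and hypoxia 1 was higher.

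**Figure D4:**
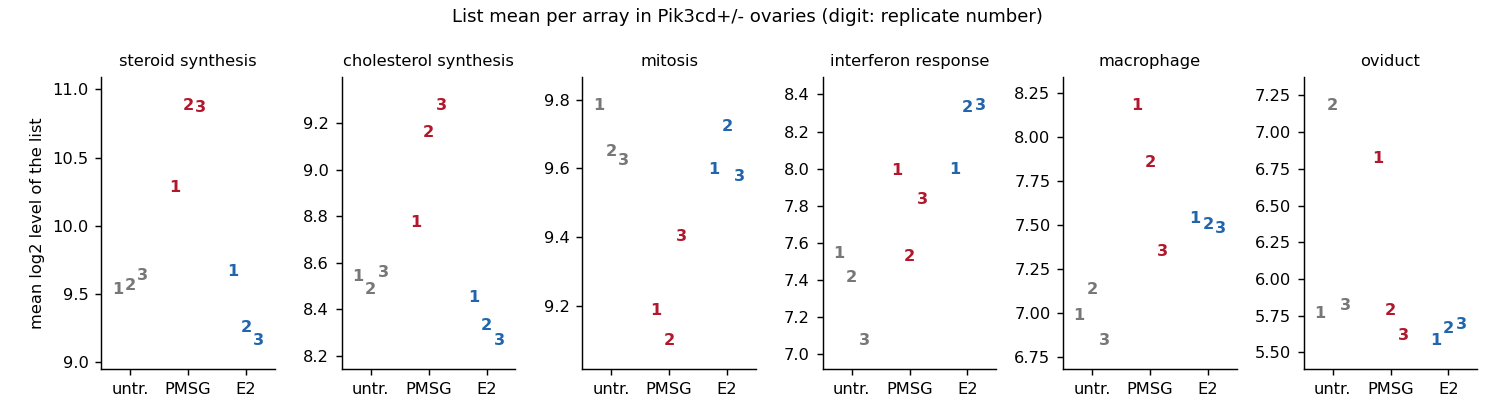
Mean log2 level of all measured genes of 6 lists (vertical axes, log2 units that differ between panels) on each array of untreated, PMSG and E2 groups of Pik3cd+/- ovaries; each digit is an array with that replicate number. PMSG arrays lie above all E2 arrays for steroid and cholesterol synthesis and below all of them for mitosis, while macrophage genes overlap and interferon genes come close. For oviduct genes PMSG array 1 stands apart from the other PMSG and the E2 arrays, and untreated array 2 lies higher still.

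Interferon response genes had a median difference of -0.47 over 28 tested, with 27 negative (7766 of all 12713 genes tested), but only 2 were called lower. That count is near the 7.65% called lower among all genes tested. Bst2, which tethers budding virus particles, read 1289.9, 1103 and 1465 after PMSG and 2049, 2046 and 1888 after E2 (-0.64 ± 0.13, adjusted p = 0.0073), and Ifit2 read 188, 129 and 163 against 255, 251 and 247 (-0.64 ± 0.18, adjusted p = 0.033). Ifit2 lost its call in 5 of the 6 fits that left out 1 array, all but that without PMSG array 1, and the list had 1 or 2 calls in such fits. Relative to untreated ovaries the list's median was 0.49 after PMSG and 0.84 after E2, values that share the untreated arrays. Of the 23 promoters of this list in the table, 13 (56.5%) held the core of the interferon-stimulated response element, GAAA, any 2 bases and GAAA on either strand, against 3.49% of all promoters.

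None of 31 tested oocyte genes was called between PMSG and E2, 29 had a negative difference and the median was -0.28. Over all genes tested, 7766 of 12713 differences were negative. Relative to untreated ovaries the list's median was -0.90 after PMSG and -0.62 after E2, values that share the untreated arrays. Zp3, a protein of the egg coat, read 1479.5, 1635 and 1629 after PMSG, 2040.3, 1900.1 and 1974 after E2 and 2928, 3213 and 2862 untreated (-0.32 ± 0.16, adjusted p = 0.21). Gdf9, the growth factor of the oocyte, read 2525, 3053 and 2871, 3832, 3231 and 3330.4 and 5349, 5414 and 5176 in the same order (-0.30 ± 0.17, adjusted p = 0.26). In both genes the 3 groups of arrays did not overlap. Against untreated ovaries Zp3 and Gdf9 fell after PMSG (-0.92 ± 0.16, adjusted p = 0.0024 and -0.92 ± 0.17, adjusted p = 0.003), and the differences after E2 were not called (-0.60 ± 0.16, adjusted p = 0.071 and -0.62 ± 0.17, adjusted p = 0.072). The granulosa identity genes were mixed, with 2 of 13 higher (Fshr and the KIT ligand Kitl), 1 lower (Esr2) and a median of -0.13. Kitl read 2207, 2089 and 2179 against 1649, 1541 and 1459 (0.48 ± 0.14, adjusted p = 0.042) and lost its call whichever array was left out; Foxl2 (-0.13 ± 0.13, adjusted p = 0.57) and Amh (-0.36 ± 0.13, adjusted p = 0.094) were not called.

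The same comparison in Pik3cd-/- ovaries, which uses other arrays, gave 423 higher genes (3.33%) and 99 lower ones (0.779%). The 2 contrasts share no array, though their p-values share the fitted variance of each gene. Of the genes higher after PMSG in Pik3cd+/- ovaries 206 were also called higher in Pik3cd-/- ovaries, which is 45.8% of the Pik3cd+/- list and 48.7% of the Pik3cd-/- list. Of the lower genes 56 were called in both, 5.76% of the Pik3cd+/- list and 56.6% of the Pik3cd-/- list, and none was called in opposite directions. A positive difference in Pik3cd-/- ovaries was found for 94% of the higher genes and a negative one for 76.1% of the lower genes. Over all genes tested, 53.7% had a positive difference there and 46.3% a negative one. The median difference in Pik3cd-/- ovaries was 0.51 for the higher genes and -0.099 for the lower genes. The correlation of the 2 differences across the 12713 genes was 0.61 (Pearson) or 0.41 (Spearman); genes are not independent replicates.

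The medians of the leading lists are given for both genotypes, with no test of a list's difference between them. The steroid synthesis list had a median of 0.95 in Pik3cd+/- and 0.90 in Pik3cd-/- ovaries, with 6 genes higher in each. The cholesterol list had 0.64 and 0.60, with 11 and 10 genes higher. The mitosis list had -0.42 and -0.03, with 13 and 0 genes lower. Cyp17a1 differed by 3.93 ± 0.61, adjusted p = 0.0012 in Pik3cd+/- and 5.60 ± 0.61 in Pik3cd-/- ovaries, and Grem1 by 4.20 and 2.26 ± 0.65. A difference between genotypes needs its own test, and none of the 12713 genes passed it: the smallest adjusted p was 0.157 (limma), with 1801 genes at an unadjusted p under 0.05. The 5 genes with the smallest p were C1qbp, Tug1, Sema4d, Tnrc6a and the kinetochore gene Cenpf. Cenpf differed by -0.67 ± 0.10 in Pik3cd+/- and 0.08 ± 0.10 in Pik3cd-/- ovaries, a gap of -0.75 ± 0.14 with an adjusted p of 0.16. The semaphorin Sema4d differed by -1.02 and -0.03 ± 0.13, a gap of -0.99 ± 0.18 with an adjusted p of 0.16, and neither gap passed the adjustment. The other probe sets of Sema4d differed by -0.06 and 0.02 in Pik3cd+/- ovaries and were not called. The median over its probe sets differed by -0.064 there (limma, adjusted p = 0.75). Pik3cd-/- calls depended on single arrays as well: of that genotype's arrays, leaving out PMSG array 1, 2 or 3 or E2 array 2 left 196 to 241 higher and 22 to 40 lower genes, and leaving out E2 array 3 gave 718 and 621.

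**Figure D5:**
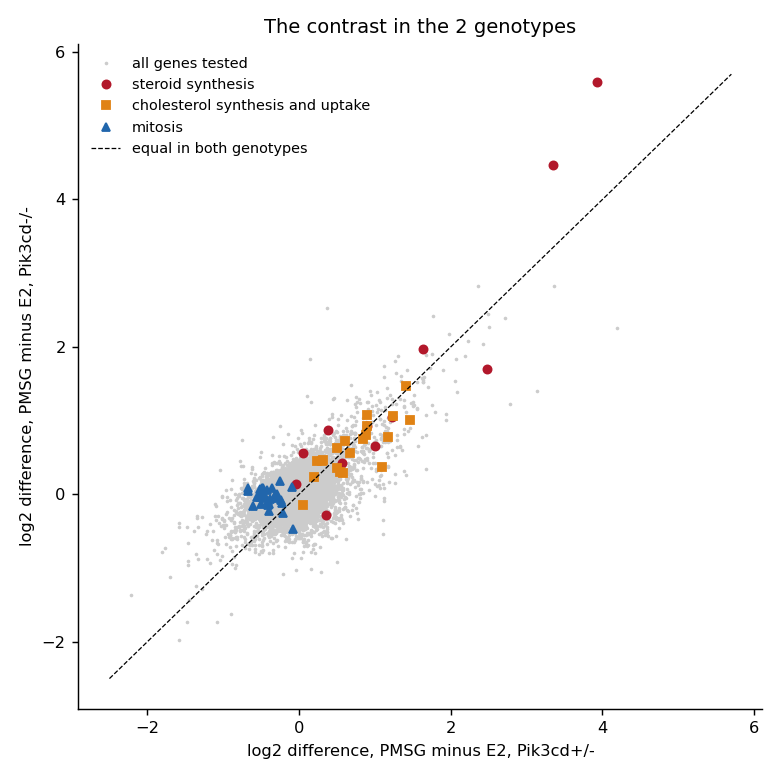
Difference between PMSG and E2 arrays in Pik3cd-/- ovaries (vertical axis, log2 units) against that in Pik3cd+/- ovaries (horizontal axis, log2 units), 1 point per gene tested, with 3 lists marked; the dashed line is equality. Cyp17a1 and Cyp11a1 are the 2 steroid synthesis genes at the upper right, above the line, and the 29 mitotic genes lie left of 0 on the horizontal axis and around 0 on the vertical one.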

How the data were processed

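Total RNA of mouse ovaries was hybridised to Affymetrix Mouse Genome 430 2.0 arrays, 18 in 6 groups of 3. For 45101 probe sets the table deposited by the authors gives linear intensity. The submitters' processing notes name MAS5 without a version; the exact normalization is not given in the sources used here, and the near-equal array medians show that some scaling was applied before deposit. No further normalization was applied.

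Probe sets that are controls (64), have no symbol (9160) or have several (932) in GEO's platform annotation were left out, and the brightest of the 34945 others stood for its gene. An offset of 8.58 (the lower decile of the table) was added to each intensity before taking log2, so that fold changes of dim genes are understated. A gene was tested if a group mean was above 5.87, the median of all log2 values. A model of 6 group means was fitted to all 18 arrays by limma's lmFit (version 3.58.1, R 4.3.3), and contrasts were moderated by eBayes with trended variances (12 residual and 3.66 prior degrees of freedom). Tests were two-sided, with Benjamini-Hochberg adjustment over 12713 genes and a threshold of 0.05. The fit was tested on simulated data. The number of arrays limits the precision; the labels call the arrays biological replicates without saying whether ovaries of several mice were pooled.

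The comparison, the 31 gene lists, the tests and the rule for naming genes were chosen with earlier results of these data known. The rule named the 12 called genes with the largest difference in each direction whose arrays do not overlap, without clone or provisional names, up to 5 called members with the smallest p of each list with at least 2 called, a fixed panel of ovarian genes, and the 5 genes with the smallest p for the difference between genotypes. Lists are described by counts and medians, with no test. Some genes share several lists, and list members without a probe set of a single symbol were not analysed here. Alternatives covered the pseudocount, filter, normalization, variance model, probe set choice, arrays in the fit, replicate numbers and leaving out each array. Promoter sequences are from RefSeq (GRCm38.p6).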

Additional observations from a re-analysis of the deposited data

How the results depend on the processing

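The 1423 calls in Pik3cd+/- ovaries (450 higher, 973 lower) numbered 1145 to 1432 under the other pseudocounts, filters, normalization, variance model and probe set choices. With only the 6 arrays compared in the fit, the lower genes numbered 608. In that fit 11 of the 85 named genes called lost their calls: Sfrp4, Star, Sufu, Smo, Ptch1, Fshr, Ereg, Ramp3, Dusp1, Pik3cd and Plau. Leaving out 1 array gave 613 to 1657 genes, 226 to 427 higher and 351 to 1230 lower. In Pik3cd-/- ovaries the 522 calls became 232 to 1339 when 1 array was left out (196 to 718 higher, 22 to 621 lower), 216 with only the groups compared (183 higher, 33 lower), and the lower genes numbered 150 after quantile normalization. The difference between genotypes had 0 calls (limma) under every alternative run, with 1801 genes at an unadjusted p under 0.05. Same-numbered PMSG and E2 arrays of Pik3cd+/- ovaries had deviations that correlated at -0.24, -0.08 and -0.31, and no array correlated best with its own number. Pairs with unlike numbers ran from -0.24 to 0.37, the highest being PMSG array 3 with E2 array 1. The 3 deviations of a group are tied to each other through its mean, so these values cannot decide how arrays were paired. Whether arrays shared a batch was not tested. With the replicate number as a block in the fit of all arrays, 1205 genes were called in Pik3cd+/- (414 higher, 791 lower) and 456 in Pik3cd-/- ovaries. With the replicate block and only the groups compared, a fit chosen after seeing the data, these were 181 (104 higher, 77 lower) and 31 (31 higher, 0 lower). Of the 85 named genes called, 31 held in every alternative that tested them and 27 ended with some array left out. Not all 17 alternatives tested each gene: 77 of the 85 passed the filter at the 70th percentile, and 81 were tested with the median over probe sets. Among the 31, Cyp11a1, Vcan, Serpinb9b and Nrsn1 were each tested in 16. The sign turned, for Sufu (0.070 with the probe set of highest variance or the median over probe sets) and Pik3cd (-0.011 with the probe set of highest variance, adjusted p = 0.96); the cause was not tested. Mitotic calls numbered 8 with the probe set of highest variance and 9 without a filter or with the replicate block, against 13. Dim genes near the filter, such as Nrsn1 and Pdia2, have the least signal over background.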

Other observations

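Genes outside the lists and ranks named above, picked here by eye from the called genes after their values were seen, are given as single values. The fatty acid elongase Elovl6 averaged 1974 ± 792 after PMSG and 607 ± 223 after E2 (1.68 ± 0.31, adjusted p = 0.0034; means ± SD, n = 3), and the endothelial lipase Lipg differed by 1.70 ± 0.26, adjusted p = 0.0012. Mrap, the accessory protein of the melanocortin receptors, averaged 672 ± 186 against 151 ± 22.9 (2.06 ± 0.23, adjusted p = 0.0001). The glutathione transferases Gsta4 (1.75 ± 0.25, adjusted p = 0.00072) and Gstm7 (1.67 ± 0.19, adjusted p = 0.0001) were higher, as was the tight junction gene Cldn11 at 148 ± 18.3 against 28.8 ± 6.48 (2.07 ± 0.19, adjusted p = 3.5e-05). The E2 mean of Cldn11 lay below the level of the filter, 49.9 intensity units. The opioid precursor gene Penk (1.56 ± 0.28, adjusted p = 0.003) and the transcription factor Zbtb16 (1.57 ± 0.25, adjusted p = 0.0015) were also higher.

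Among the lower genes, some are known mainly from striated muscle: Mybpc3, a myosin-binding protein, averaged 154 ± 31.9 after PMSG and 370.2 ± 92.3 after E2 (-1.21 ± 0.24, adjusted p = 0.0053), Myom2 differed by -1.10 ± 0.24, adjusted p = 0.0084 and the myogenic factor Myf5 by -1.28 ± 0.25, adjusted p = 0.005. Igfbp1, an IGF-binding protein, averaged 17.3 ± 1.45 against 57.3 ± 8.8 (-1.34 ± 0.21, adjusted p = 0.0013). Its PMSG mean lay below the level of the filter, 49.9 intensity units, and its E2 mean not far above it. Nlrc5, an activator of MHC class I genes, was lower by -1.34 ± 0.32, adjusted p = 0.016, and the growth factor gene Pdgfb by -1.10 ± 0.18, adjusted p = 0.0014. All these p-values are from limma over the genes tested.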
